A study of Mus musculus with 12 samples.

Results

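Cxcl1, Cxcl2, Cxcl3, Cxcl5, Ppbp and Pf4, the CXC chemokine genes of neutrophil recruitment and of platelets, and Cxcr2, the receptor gene for most of their products, were followed across mouse primary acute myeloid leukaemia (AML) cells treated with inhibitors of pathways downstream of Ras. These 7 genes were taken by symbol from a table of 23234 genes, and all 7 were found. They were picked with their values in these same libraries already known, the large rises of Cxcl3, Ppbp, Cxcl2 and Cxcl5 with RAD001 and the fall of Cxcl2 with PD325901 among them. Differences of the 7 genes between groups are therefore given as a description, with their errors and with no test. The groups were PD325901 at 20 µM, an inhibitor of the kinases MEK1 and MEK2, RAD001 at 26 µM (everolimus, an inhibitor of mTOR complex 1), GDC0941 at 20 µM, an inhibitor of class I PI3 kinases, and the vehicle DMSO. Each group had 3 libraries, 12 in all, and each treatment lasted 24 h. All groups, DMSO included, carried NRASG12V and Mll-AF9 on the (FVB/n X C57/BL/6J) F1 background and were kept in medium with serum and GM-CSF. The labels do not say how many leukaemias the cells came from or whether the replicates were separate cultures, so the spread between replicates may be technical.

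CXC chemokines are small secreted proteins that guide leukocytes. The products of Cxcl1, Cxcl2, Cxcl3, Cxcl5 and Ppbp carry a glutamate-leucine-arginine motif before the paired cysteines, bind the receptor that Cxcr2 encodes and draw neutrophils to inflamed tissue. Pf4, platelet factor 4, lacks that motif, is stored with the Ppbp product in platelet granules, and is not a classical Cxcr2 ligand. In macrophages and neutrophils the Cxcl1, Cxcl2 and Cxcl3 genes are known as early targets of NF-kB, and their mRNAs are short-lived.

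Values were FPKM (fragments per kilobase of transcript, scaled to the mapped fragments of a library), a level per length that can be set side by side between genes. Log2 differences were taken on log2(FPKM + 1), a scale on which changes of low genes look smaller than they are, and their standard errors (SE) come from 1 limma fit over all 12 libraries. The fit covered the 10305 genes that averaged 1 FPKM or more, and a gene that is not among the 7 was called changed at an adjusted p under 0.05 (Benjamini-Hochberg over all genes tested in a comparison). Read counts were not used here, so absolute depth is unknown, and the steps between the lowest values put the depth of the libraries between 0.847 and 1.21 times that of the first DMSO library. Libraries of the same group had Spearman correlations of 0.966 to 0.996 across genes, and libraries of different groups 0.875 to 0.965. The leukaemia cells had high levels of myeloid genes, with summed levels of 14 mature neutrophil markers between 8818 and 47952 FPKM and of 13 monocyte and macrophage markers between 3022 and 4774 FPKM over all groups. All 12 stromal, endothelial and epithelial markers stayed under 1 FPKM in every library. Lyz2, a lysozyme gene of myeloid cells, was listed at 0 in all 12 libraries, so an exact 0 in these values can be a failed estimate and is given only as a listed value. In bulk RNA, fewer cells of a type and less RNA per cell cannot be told apart.

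The neutrophil chemoattractant Cxcl3 was the most abundant of the 7 genes with RAD001 and nearly absent with PD325901. It had 0.114, 0 and 0.200 FPKM with PD325901, 716, 1232 and 1102 FPKM with RAD001, 7.31, 13.5 and 16.3 FPKM with GDC0941, and 19.7, 4.55 and 3.95 FPKM with DMSO. All RAD001 libraries lay above, and all PD325901 libraries below, every library of the other groups, while GDC0941 and DMSO overlapped. By group mean Cxcl3 ranked 90 among all genes with RAD001, against 5751 with DMSO. The log2 difference from DMSO was -2.91 ± 0.47 (SE) with PD325901, 6.90 ± 0.47 with RAD001 and 0.63 ± 0.47 with GDC0941. On the FPKM scale the RAD001 mean of 1017 ± 269 was 108 times the DMSO mean of 9.39 ± 8.91 (SD, n = 3 each). DMSO replicate 1 had a higher Cxcl3 level than the other DMSO libraries, and without replicate 1 of every group the RAD001 mean was 275 times the DMSO mean. Without replicate 1 both GDC0941 libraries also lay above both DMSO libraries, at a log2 difference of 1.60.

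Cxcl2, whose product likewise acts on neutrophils through the Cxcr2 receptor, followed the same order at its extremes. It had 0.645, 0.594 and 0.510 FPKM with PD325901, 315, 157 and 234 FPKM with RAD001, 37.9, 14.5 and 49.3 FPKM with GDC0941, and 94.9, 19.9 and 11.3 FPKM with DMSO. The RAD001 libraries were above and the PD325901 libraries below all others, and the GDC0941 libraries lay within the range of DMSO. With DMSO its highest library was 8.43 times its lowest, the widest ratio among the 5 members with no 0 there. Its log2 difference from DMSO was -4.20 ± 0.64 with PD325901, 2.97 ± 0.64 with RAD001 and 0.10 ± 0.64 with GDC0941. The mean with PD325901, 0.583 ± 0.0686 FPKM, stood against 42.0 ± 46.0 FPKM with DMSO (SD, n = 3 each), which was 72.1 times as high. Without replicate 1 of every group the PD325901 mean was 28.2-fold lower than the DMSO mean, the GDC0941 difference was 0.80, and the RAD001 mean was 12.6 times the DMSO mean in place of 5.61 times.

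The ratio of Cxcl3 to Cxcl2, both in FPKM, was 2.27, 7.84 and 4.70 in the RAD001 libraries, 0.193, 0.933 and 0.330 in the GDC0941 libraries and 0.207, 0.229 and 0.351 in the DMSO libraries. Cxcl3 thus exceeded Cxcl2 in all RAD001 libraries and in no GDC0941 or DMSO library. The transcripts of these paralogs are alike in part: of the stretches of 36 bases in Cxcl2 transcripts 6.85% occur in Cxcl3 transcripts (GENCODE M21), so a small part of the reads may not be assignable between them.

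Markers of monocytes and macrophages, cells known to make these chemokines, also differed between the groups. The 13 markers summed to 4160 to 4576 FPKM with PD325901, 3618 to 4774 FPKM with RAD001, 3070 to 3644 FPKM with GDC0941 and 3022 to 3392 FPKM with DMSO. Of the 12 that were tested with limma, 4 rose and 4 fell with PD325901, 5 rose and 1 fell with RAD001, and 3 rose and 2 fell with GDC0941, or 6 and 5, 7 and 2, and 7 and 3 without replicate 1 of every group. Over all 10305 genes tested, 4802, 3224 and 2503 were called with PD325901, RAD001 and GDC0941, and 5693, 4845 and 4321 without replicate 1. Larger counts without replicate 1, here and in the lists below, are thus not particular to a list. Cd14, the gene of a co-receptor for bacterial lipopolysaccharide, averaged 33.9 ± 4.54 FPKM with PD325901, 698 ± 193 FPKM with RAD001 and 622 ± 128 FPKM with GDC0941, against 170 ± 72.8 FPKM with DMSO (SD, n = 3 each). The scavenger receptor gene Msr1 averaged 42.4 ± 6.78, 419 ± 64.3 and 265 ± 37.9 FPKM with PD325901, RAD001 and GDC0941, against 201 ± 13.7 FPKM with DMSO. Its difference with GDC0941 did not pass (adjusted p = 0.0813 by limma). The mannose receptor gene Mrc1, by contrast, was lowest with RAD001, at 1.25 ± 0.255 FPKM, against 10.7 ± 1.40 FPKM with DMSO. With PD325901 it also fell, to 3.56 ± 1.18 FPKM. The 4 markers that rose with PD325901 were Csf1r, Cd68, Mpeg1 and Ccr2. They averaged 245, 925, 835 and 99.7 FPKM with PD325901, against 152, 654, 553 and 43.2 FPKM with DMSO. The 2 markers that fell with GDC0941 were Ly6c2 and Fcgr1. They averaged 216 ± 57.1 and 6.91 ± 0.154 FPKM with GDC0941, against 1274 ± 267 and 48.2 ± 6.57 FPKM with DMSO. The GDC0941 sum thus holds moves in both directions. Cd14, Msr1, Mrc1, Ly6c2 and Fcgr1 were named after their values had been seen, and the part of such cells in the levels of the chemokine genes was not tested.

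The DNA before the start of the ligand genes is shown because Cxcl3, Cxcl2 and Cxcl1 share a stretch there that Ppbp and Pf4 do not. Of the 7 genes 6 had an entry among the RefSeq promoters on GRCm38.p6, and the 150 bases before the start are given 5′ to 3′ on the plus strand of chromosome 5. The positions are chr5:90785951-90786100 for Cxcl3, chr5:90903749-90903898 for Cxcl2, chr5:90891095-90891244 for Cxcl1, chr5:90768368-90768517 for Ppbp and chr5:90772285-90772434 for Pf4. The values themselves were made on another build, and no coordinate was carried over. Capitals mark GGGAATTTCCC, the longest stretch common to Cxcl1, Cxcl2 and Cxcl3, which holds a kappaB sequence (the kind of site that NF-kB binds), the TATA box TATAAA, and ATAAAAGG, the next longest common stretch. Each was searched on both strands.
Cxcl3: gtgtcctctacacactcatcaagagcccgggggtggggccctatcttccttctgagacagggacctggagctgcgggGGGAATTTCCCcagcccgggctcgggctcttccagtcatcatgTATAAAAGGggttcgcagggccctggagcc
Cxcl2: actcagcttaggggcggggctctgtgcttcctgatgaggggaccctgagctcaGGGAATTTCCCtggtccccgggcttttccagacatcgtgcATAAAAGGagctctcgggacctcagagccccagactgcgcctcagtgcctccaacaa
Cxcl1: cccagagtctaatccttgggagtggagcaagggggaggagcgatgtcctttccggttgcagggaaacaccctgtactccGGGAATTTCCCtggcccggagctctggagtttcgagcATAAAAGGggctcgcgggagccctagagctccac
Ppbp: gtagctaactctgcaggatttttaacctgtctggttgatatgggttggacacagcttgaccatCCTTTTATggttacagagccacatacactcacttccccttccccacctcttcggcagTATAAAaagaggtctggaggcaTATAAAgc
Pf4: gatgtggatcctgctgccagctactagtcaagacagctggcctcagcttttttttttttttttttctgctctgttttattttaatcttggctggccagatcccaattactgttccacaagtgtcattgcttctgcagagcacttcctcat

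The stretch of 11 bases with the kappaB sequence began 73 bases before the start of Cxcl3, 97 bases before that of Cxcl2 and 71 bases before that of Cxcl1. It was not found in these windows of Ppbp, Pf4 or Cxcr2. Of 32851 RefSeq promoter windows of the same length, 10 (0.0304%) held it. The octamer ATAAAAGG stood 29, 57 and 34 bases before the starts of Cxcl3, Cxcl2 and Cxcl1, overlapping a TATAAA in Cxcl3, and was held by 1.05% of the windows. In Ppbp a TATAAA began 30 and 8 bases before the start, and the octamer stood on the other strand 87 bases before it. TATAAA was held by 7.57% of the windows. The AP-1 sequence TGANTCA, the C/EBP sequence TTGCNNAA and the GATA sequence AGATAA were in none of the 6 windows, against 4.24%, 5.46% and 5.65% of all windows. In global alignments of the windows, Cxcl1, Cxcl2 and Cxcl3 were identical to each other at 62.0% to 62.7% of 150 bases, and the other pairs at 43.3% to 56.7%. The motifs were chosen after the sequences had been seen, and a match is a description of the letters only.

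Cxcl5, a neutrophil chemoattractant best known from epithelial cells and platelets, had a level above 1 FPKM with RAD001 only. It had 0.0349, 0 and 0 FPKM with PD325901, 8.25, 5.62 and 9.79 FPKM with RAD001, 0, 0 and 0.0348 FPKM with GDC0941, and 0.139, 0.0635 and 0 FPKM with DMSO. The RAD001 libraries lay apart from the other 9, which overlapped each other near 0. The log2 difference from DMSO was 3.03 ± 0.16 with RAD001, -0.08 ± 0.16 with PD325901 and -0.08 ± 0.16 with GDC0941. With 0.1 FPKM added in place of 1 the RAD001 difference was 5.63, and with 5 FPKM added it was 1.33. Cxcl5 passed the filter on low values through the RAD001 group alone.

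Cxcl1, the gene of a major neutrophil chemoattractant of the mouse, stayed under 1 FPKM in every library and did not pass the filter. It was listed at 0 in the PD325901 libraries, at 0.355, 0.0622 and 0.0625 FPKM in the RAD001 libraries, at 0, 0.0776 and 0 FPKM in the GDC0941 libraries, and at 0.152, 0 and 0.130 FPKM in the DMSO libraries. The groups overlapped, and the lowest value above 0 was 0.0622 FPKM. Its closest relatives by promoter, Cxcl3 and Cxcl2, had at least 157 FPKM in the same RAD001 libraries.

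Ppbp, which encodes the precursor of a platelet chemokine that acts on neutrophils after cleavage, was high with RAD001 and low with both other inhibitors. It had 0.842, 0.596 and 0.568 FPKM with PD325901, 201, 182 and 167 FPKM with RAD001, 0.530, 0.595 and 0.719 FPKM with GDC0941, and 6.95, 3.97 and 2.55 FPKM with DMSO. RAD001 lay above DMSO, and DMSO above PD325901 and GDC0941, which overlapped each other. The log2 difference from DMSO was -1.64 ± 0.22 with PD325901, 5.14 ± 0.22 with RAD001 and -1.69 ± 0.22 with GDC0941. The RAD001 mean of 183 ± 16.8 FPKM was 40.8 times the DMSO mean of 4.49 ± 2.25 FPKM (SD, n = 3 each).

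Pf4, whose product binds heparin and is released by activated platelets, was the most abundant of the 6 ligand genes with PD325901 and with DMSO. It had 34.4, 10.8 and 10.1 FPKM with PD325901, 278, 232 and 215 FPKM with RAD001, 4.35, 4.49 and 3.40 FPKM with GDC0941, and 132, 81.0 and 76.6 FPKM with DMSO. No groups overlapped, and the order was RAD001, DMSO, PD325901 and GDC0941, from high to low. The log2 difference from DMSO was -2.50 ± 0.37 with PD325901, 1.35 ± 0.37 with RAD001 and -4.23 ± 0.37 with GDC0941. The GDC0941 mean of 4.08 ± 0.590 FPKM was 23.7-fold lower than the DMSO mean of 96.6 ± 31.0 FPKM (SD, n = 3 each).

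Pf4 and Ppbp lie next to each other, and their ratio in FPKM differed between groups. It was 40.9, 18.1 and 17.9 with PD325901, 1.39, 1.28 and 1.28 with RAD001, 8.20, 7.54 and 4.73 with GDC0941, and 19.0, 20.4 and 30.1 with DMSO. The RAD001 libraries were the lowest and close to each other. Of 15 markers of megakaryocytes and platelets 9 stayed under 1 FPKM in every library. The megakaryocyte integrin gene Itga2b, for example, had at most 0.462 FPKM in any library. The summed level of all 15 markers was 11.2 to 14.0 FPKM with PD325901, 65.5 to 84.0 FPKM with RAD001, 69.2 to 83.3 FPKM with GDC0941 and 20.6 to 24.1 FPKM with DMSO. Most of that sum with RAD001 and GDC0941 was Selp, the gene of the adhesion molecule P-selectin, which averaged 1.34 FPKM with PD325901, 48.2 FPKM with RAD001 and 59.5 FPKM with GDC0941, against 7.43 FPKM with DMSO. Without Selp the other 14 markers summed to 9.67 to 13.2 FPKM with PD325901, 23.9 to 25.4 FPKM with RAD001, 13.2 to 21.4 FPKM with GDC0941 and 13.7 to 17.8 FPKM with DMSO. RAD001 lay above DMSO and PD325901 below it in this sum, and GDC0941 overlapped with DMSO. Most of it with RAD001 was F2rl2, which averaged 1.89, 19.9 and 9.12 FPKM with PD325901, RAD001 and GDC0941, against 8.11 FPKM with DMSO. Vwf, by contrast, averaged 4.66, 0.833 and 2.01 FPKM with PD325901, RAD001 and GDC0941, against 1.46 FPKM with DMSO. The order of the groups in this sum thus rests on F2rl2 and is not shared by all 14 markers. Among all genes tested with limma 18.4% rose and 28.2% fell with PD325901, 15.4% and 15.9% with RAD001, and 11.6% and 12.7% with GDC0941. Of the 4 markers that passed the filter, 1 rose and 2 fell with PD325901, 2 rose and 0 fell with RAD001, and 1 rose and 0 fell with GDC0941, or 1 and 3, 2 and 1, and 2 and 1 without replicate 1 of every group. The part of such cells in the levels of Pf4 and Ppbp was not tested. Itga2b, Selp, F2rl2 and Vwf were named after their values had been seen.

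**Figure D1:**
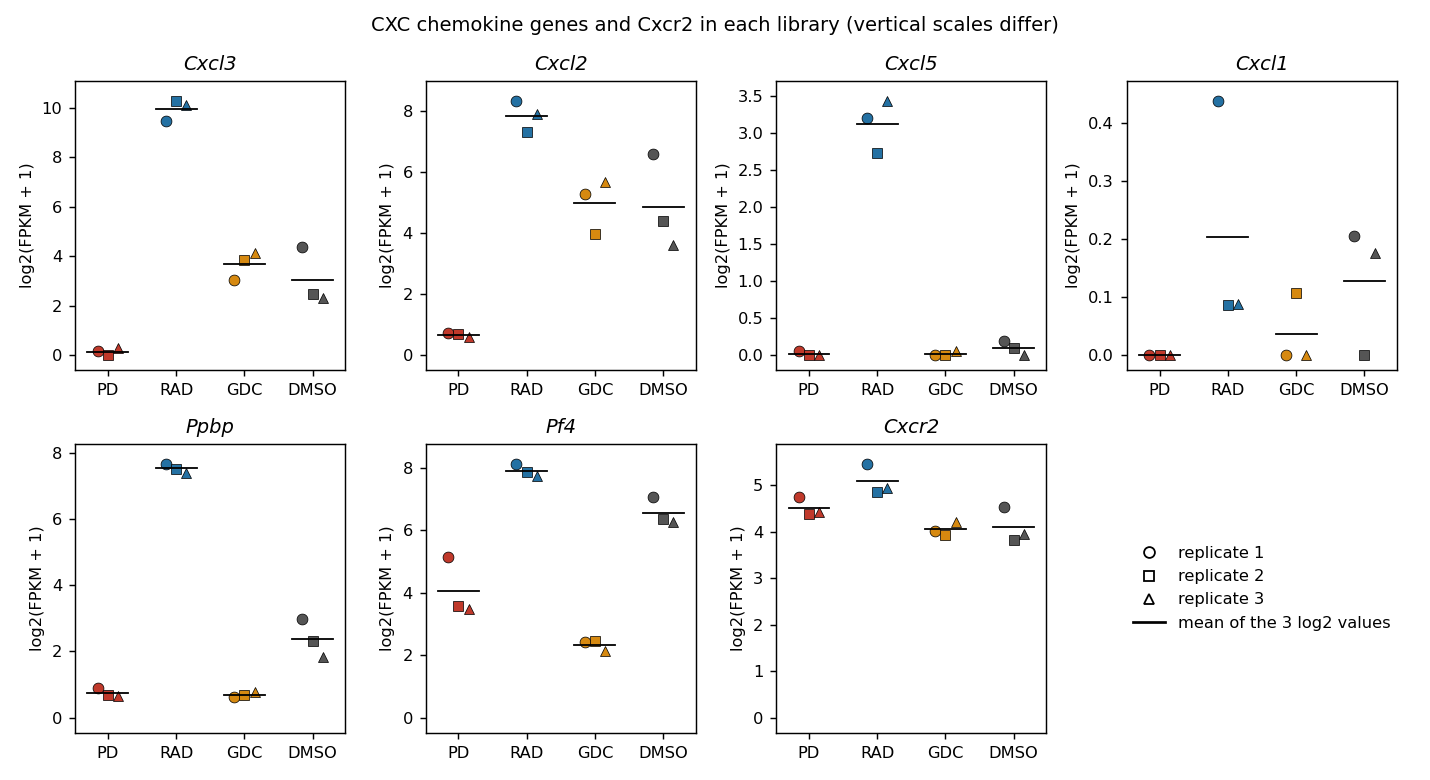
Level of each gene, as log2(FPKM + 1), in each of the 12 libraries by group, with 1 symbol per replicate number and a line at the mean of the 3 log2 values; vertical scales differ between genes. The 3 RAD001 libraries lie above all others for Cxcl3, Cxcl2, Cxcl5, Ppbp, Pf4 and Cxcr2, and Cxcl1 reaches at most 0.355 FPKM.

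Cxcr2, the receptor gene, varied least of the 6 members that passed the filter, with a root mean square (RMS) deviation from its own mean of 0.47 on the log2 scale over the 12 libraries. It had 25.6, 19.8 and 20.3 FPKM with PD325901, 42.8, 27.9 and 29.7 FPKM with RAD001, 15.2, 14.2 and 17.5 FPKM with GDC0941, and 22.1, 13.0 and 14.3 FPKM with DMSO. RAD001 lay above all other libraries, and DMSO overlapped with both PD325901 and GDC0941, while all PD325901 libraries lay above all GDC0941 libraries. The log2 difference from DMSO was 0.41 ± 0.20 with PD325901, 0.99 ± 0.20 with RAD001 and -0.05 ± 0.20 with GDC0941. By replicate number, a pairing that no label gives, the PD325901 difference was 0.20, 0.56 and 0.48, above 0 in all 3. With a replicate block its SE was 0.13. The difference was 0.30 ± 0.22 without PD325901 replicate 1 and 0.27 ± 0.21 without DMSO replicate 2, but 0.63 ± 0.18 without DMSO replicate 1. The summed level of 14 mature neutrophil markers, which mark cells that bear this receptor, was 36459 to 47952 FPKM with PD325901, 23423 to 28053 FPKM with RAD001, 8818 to 13211 FPKM with GDC0941 and 18244 to 18732 FPKM with DMSO. In calls by limma, 8 of these markers rose and 1 fell with PD325901, 7 rose and 0 fell with RAD001, and 3 rose and 8 fell with GDC0941, or 10 and 2, 10 and 2, and 5 and 9 without replicate 1 of every group. Among all genes tested 18.4% rose and 28.2% fell with PD325901, 15.4% and 15.9% with RAD001, and 11.6% and 12.7% with GDC0941. S100a8 and S100a9, genes of the calprotectin subunits, held most of the sum, at 9290 ± 2072 and 9337 ± 990 FPKM with RAD001, against 7180 ± 98.2 and 7353 ± 46.2 FPKM with DMSO. S100a8 and S100a9 did not pass with RAD001 (adjusted p = 0.14 and 0.19 by limma). The granule protein genes Camp, Ltf and Ngp did not pass either, with log2 differences of -0.80, -1.05 and -0.48. The 7 that rose with RAD001 were Mmp8, Mmp9, Fpr1, Retnlg, Fpr2, Itgam and Csf3r, at log2 differences from 0.36 for Csf3r to 2.77 for Mmp8. S100a8, S100a9, Camp, Ltf and Ngp were named after their values had been seen. The part of such cells in the Cxcr2 levels was not tested.

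Against DMSO, 6 of the 7 genes could be compared over the whole table, in which limma called 18.4% of genes higher and 28.2% lower with PD325901, 15.4% higher and 15.9% lower with RAD001, and 11.6% higher and 12.7% lower with GDC0941. With PD325901 4 of 6 had all libraries below DMSO (Cxcl3, Cxcl2, Ppbp and Pf4), where 36.9% of all genes tested did so, and 0 had all above, where 25.8% did. With RAD001 6 of 6 had all libraries above DMSO, where 25.3% of all genes tested did. With GDC0941 2 of 6 had all libraries below DMSO (Ppbp and Pf4), where 18.3% did. Since the genes were picked on these contrasts, nothing is read from these shares. The comparisons share the DMSO libraries. Replicate 1 was the highest library in 5 of 5 members that had no 0 with DMSO, 4 of 4 with PD325901, 5 of 7 with RAD001 and 0 of 5 with GDC0941.

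**Figure D2:**
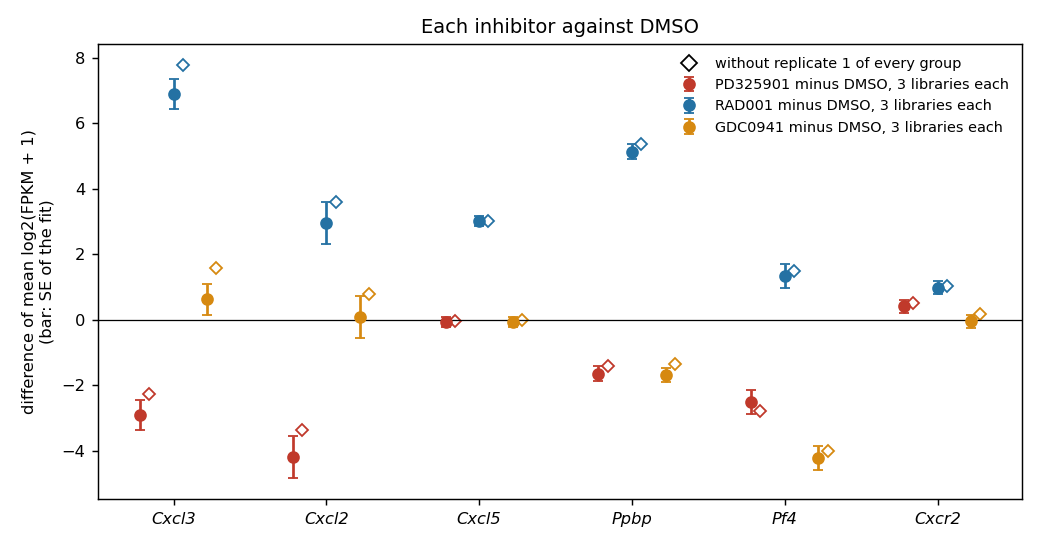
Difference in mean log2(FPKM + 1) from DMSO for the 6 genes that passed the filter, with 3 libraries per group (filled points, bars are the SE of the limma fit) and without replicate 1 of every group (open diamonds). All 6 RAD001 points are above 0, from 0.99 for Cxcr2 to 6.90 for Cxcl3, and the GDC0941 points are at 0.63 for Cxcl3 (1.60 without replicate 1), 0.10 for Cxcl2 (0.80 without replicate 1) and -4.23 for Pf4.

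The summed level of the 6 ligand genes was 11.4 to 36.1 FPKM with PD325901, 1518, 1809 and 1727 FPKM with RAD001, 50.1, 33.2 and 69.7 FPKM with GDC0941, and 254, 109 and 94.5 FPKM with DMSO. No inhibitor group overlapped with DMSO in this sum. The make-up differed as well as the amount. Pf4 made up 91.5% ± 3.53 of the sum with PD325901, 14.5% ± 3.29 with RAD001, 9.03% ± 4.33 with GDC0941 and 69.0% ± 15.1 with DMSO (SD, n = 3 each). Cxcl3 made up 59.7% ± 11.1 with RAD001, 26.2% ± 13.3 with GDC0941 and 5.36% ± 2.06 with DMSO. Cxcl2 held the largest share with GDC0941, 63.3% ± 17.2, against 22.5% ± 13.2 with DMSO. The leading ligand transcript was thus Pf4 with PD325901 and DMSO, Cxcl3 with RAD001 and Cxcl2 with GDC0941, in each of the 3 libraries.

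**Figure D3:**
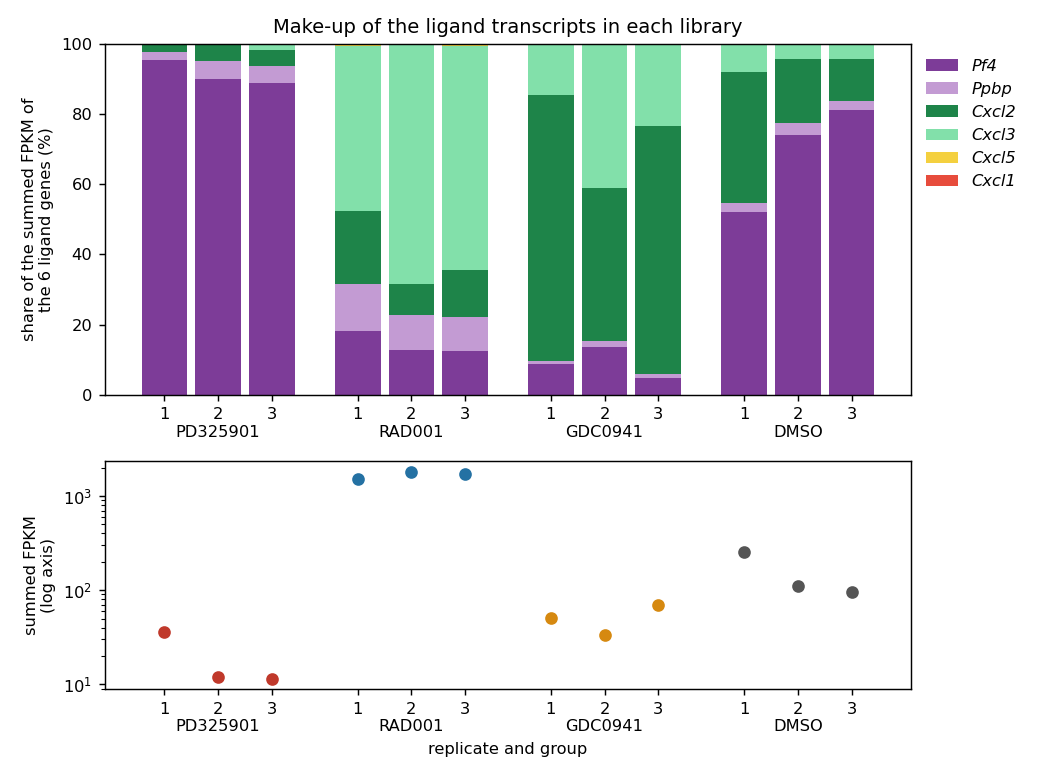
Top, share of each gene in the summed FPKM of the 6 ligand genes in each library; bottom, the sum itself on a log axis. Pf4 fills most of the bars of PD325901 and DMSO, Cxcl3 is the largest part of the RAD001 bars and Cxcl2 of the GDC0941 bars, and the RAD001 sums, 1518 to 1809 FPKM, are the highest.

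The 6 ligand genes lie in 1 cluster on chromosome 5, whereas Cxcr2 lies on chromosome 1. In RefSeq order on GRCm38.p6 the protein-coding genes run Rassf6, Cxcl5, Ppbp, Pf4, Cxcl3, Cxcl15, Cxcl1, Cxcl2, Mthfd2l, Epgn, Ereg, Areg, Btc and Parm1, followed by Rchy1. Between Cxcl3 and Cxcl2, both among the abundant genes with RAD001, Cxcl15 was listed at 0 in all 12 libraries and Cxcl1 stayed near 0. Past Cxcl2, the folate enzyme gene Mthfd2l had 0.112, 0.258 and 0.271 FPKM with PD325901, 1.32, 1.63 and 1.47 FPKM with RAD001, 0.942, 1.03 and 1.01 FPKM with GDC0941, and 0.590, 0.615 and 0.671 FPKM with DMSO, with no overlap between groups. Areg, the gene of the epidermal growth factor receptor ligand amphiregulin, was listed at 0 with PD325901, had 1.07, 1.22 and 1.32 FPKM with RAD001, 0.0584, 0.116 and 0.115 FPKM with GDC0941, and 0.0573, 0.104 and 0.0488 FPKM with DMSO. Its RAD001 libraries stood apart, as for Cxcl5. None of the 8 neighbours fixed as a list passed the filter on low values, so none was tested, and 6 of them stayed under 1 FPKM in every library. The ubiquitin ligase gene Rchy1, the next abundant gene along the chromosome, averaged 23.3, 19.6 and 21.5 FPKM with PD325901, RAD001 and GDC0941, against 20.5 FPKM with DMSO. Rchy1 was chosen after its values had been seen.

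**Figure D4:**
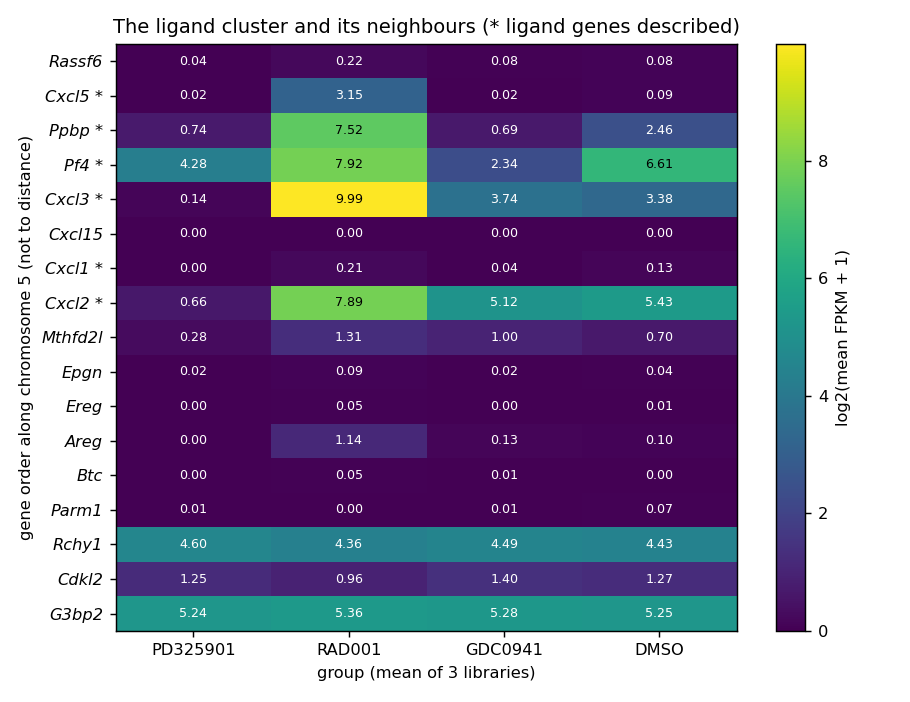
Group means, as log2(mean FPKM + 1), of genes in their order along chromosome 5, ligand genes of interest marked with an asterisk; rows are not spaced by distance, and genes without a row in the table are left out. Cxcl5, Ppbp, Pf4, Cxcl3 and Cxcl2 are highest in the RAD001 column, Cxcl15 and Cxcl1 are at or near 0 in every column, and Rchy1 and G3bp2 differ little between columns.

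The genes outside the 7 whose pattern over the 12 libraries was most like each member were found from the RMS difference between gene-centred log2(FPKM + 1) values, where 0 is an identical pattern. This likeness is a description over 12 libraries in 4 groups and mostly reflects the group levels. Nearest to Cxcl3 was Serpinb2, the plasminogen activator inhibitor of macrophages, at 0.57, against an RMS of 3.62 of Cxcl3 around its own mean. Serpinb2 averaged 0.635 FPKM with PD325901, 1551 FPKM with RAD001, 17.4 FPKM with GDC0941 and 18.9 FPKM with DMSO. Next came the collagenase gene Mmp13 at 1.36 and the lysozyme-like gene Lyzl4 at 2.08. Nearest to Cxcl2 were Dusp6, an ERK phosphatase gene induced by ERK, at 0.98, the transcription factor gene Gata2 at 1.02 and the matrix phosphoprotein gene Spp1 at 1.02. Dusp6 averaged 5.85 FPKM with PD325901, 275 FPKM with RAD001, 135 FPKM with GDC0941 and 87.7 FPKM with DMSO. Nearest to Ppbp were Lyzl4 at 1.06, the small nucleolar RNA gene Snora78 at 1.33 and Serpinb2 at 1.39.

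Pf4 had other neighbours than Ppbp by this measure. Nearest to Pf4 were the interferon-inducible membrane protein gene Ifitm1 at 1.01, the tubulin gene Tuba8 at 1.10 and the interleukin 1 decoy receptor gene Il1r2 at 1.31. Ifitm1 averaged 43.3 FPKM with PD325901, 201 FPKM with RAD001, 15.6 FPKM with GDC0941 and 141 FPKM with DMSO, the same order of groups as Pf4. Nearest to Cxcl5 were the lipoprotein-associated phospholipase gene Pla2g7 at 0.41, the C-type lectin gene Clec10a at 0.41 and the cytokine receptor gene Csf2rb2 at 0.47. Among the genes nearest to Cxcr2 were the NF-kB subunit gene Relb at 0.17 and Gm10345 at 0.18. Among the members themselves the closest pair was Cxcl5 and Cxcr2, at 1.00, whose own RMS deviations were 1.34 and 0.47, followed by Cxcl3 and Ppbp at 1.48. The own RMS deviations of Cxcl3 and Ppbp were 3.62 and 2.80. The measure is not scaled to these deviations, so members that vary little come out close without a shared pattern.

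Among the 9 other CXC ligand genes, 3 passed the filter and 5 stayed under 1 FPKM in every library. In the comparisons with DMSO 46.6% of all genes tested were called with PD325901, 31.3% with RAD001 and 24.3% with GDC0941. Of the 3 tested, 0 rose and 1 fell with PD325901, 1 rose and 1 fell with RAD001, and 0 rose and 1 fell with GDC0941, or 0 and 2, 1 and 2, and 0 and 2 with a replicate block. After quantile normalization 1 rose and 1 fell with each of the 3 inhibitors. The interferon-induced Cxcl10, whose product attracts T cells, fell with GDC0941 to 1.74 ± 0.182 FPKM, against 19.8 ± 3.27 FPKM with DMSO (log2 difference -2.92 ± 0.28 SE, adjusted p = 7.38e-05 by limma, n = 3 each). It also fell with PD325901 (-0.91 ± 0.28, adjusted p = 0.0198) and RAD001 (-0.91 ± 0.28, adjusted p = 0.0288). The PD325901 call ended without PD325901 replicate 2 (adjusted p = 0.0659) or DMSO replicate 3 (0.0712). The RAD001 call ended without RAD001 replicate 3 (0.0589), DMSO replicate 2 (0.0739) or DMSO replicate 3 (0.101), when no low genes were left out (0.0538), and when the 2 groups were fitted alone (0.0925). Without RAD001 replicate 1 the Cxcl10 difference was -0.52. Cxcl16, a membrane-bound chemokine gene of macrophages, rose with RAD001 (0.76 ± 0.17, adjusted p = 0.00560).

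Among 7 other CXC and atypical chemokine receptor genes only Cxcr4 passed the filter. Cxcr4, whose product holds cells in the bone marrow, rose to 102 ± 10.6 FPKM with PD325901, against 42.4 ± 5.95 FPKM with DMSO (log2 difference 1.25 ± 0.17 SE, adjusted p = 0.000163 by limma, n = 3 each). With GDC0941 it rose by 0.54 ± 0.17 (adjusted p = 0.0366). That call ended with no filter (0.0594), with quantile normalization (0.0526), and without GDC0941 replicate 2 (0.122), GDC0941 replicate 3 (0.0679), DMSO replicate 1 (0.123) or DMSO replicate 2 (0.0852). With RAD001 the difference was 0.33 ± 0.17 (adjusted p = 0.158), and it passed with library weights (0.00101), when RAD001 replicate 1 was left out (0.0164) and when every first replicate was (0.0225). The T cell receptor for Cxcl10, Cxcr3, averaged 2.33 ± 0.423, 0.149 ± 0.0510 and 0.233 ± 0.0229 FPKM with PD325901, RAD001 and GDC0941, against 0.541 ± 0.209 FPKM with DMSO, and was not tested. Markers of lymphoid and erythroid cells were also highest with PD325901. The 10 markers summed to 4.58 to 8.05 FPKM with PD325901, 0.948 to 2.99 FPKM with RAD001, 0.492 to 2.60 FPKM with GDC0941 and 1.15 to 3.46 FPKM with DMSO. The T cell gene Cd3d, named after its values had been seen, had 4.40, 3.43 and 3.28 FPKM with PD325901, against 0.101, 1.20 and 1.99 FPKM with DMSO (log2 difference 1.27, adjusted p = 0.0106 by limma). That call ended with a pseudocount of 0.1 FPKM (adjusted p = 0.102). The part of such cells in the levels of Cxcr3 and Cxcr4 was not tested.

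Genes that carry the signal of the Cxcr2 receptor, from G proteins and arrestins to Rac and Src family kinases, were present in all groups, and all 22 were tested. Of all genes tested, limma called 18.4% higher and 28.2% lower with PD325901, 15.4% and 15.9% with RAD001, and 11.6% and 12.7% with GDC0941. With PD325901 10 rose and 4 fell (median log2 difference 0.30, against -0.06 over all genes tested). With RAD001 8 rose and 2 fell (median 0.14, against 0.00), or 5 and 2 after quantile normalization. With GDC0941 3 rose and 3 fell (median -0.01, against 0.02), or 4 and 7 without replicate 1 of every group, 2 and 4 after median-ratio scaling and 2 and 5 after quantile normalization. Prex1, an exchange factor for Rac, rose with PD325901 to 43.0 ± 2.04 FPKM, against 25.2 ± 0.830 FPKM with DMSO (0.75 ± 0.08, adjusted p = 4.01e-05), as did the PI3 kinase gamma subunit Pik3r5 (0.70 ± 0.11, adjusted p = 0.000569). Rac2, the Rac of blood cells, rose with PD325901 (0.46 ± 0.09, adjusted p = 0.00182) and fell with GDC0941 (-0.47 ± 0.09, adjusted p = 0.00371). The Src family kinase Fgr rose with RAD001 (1.15 ± 0.19, adjusted p = 0.00133) and GDC0941 (0.97 ± 0.19, adjusted p = 0.00458). With PD325901 Fgr rose as well (0.59 ± 0.19, adjusted p = 0.0274). The phospholipase Plcb3 (0.64 ± 0.14, adjusted p = 0.00529) and the kinase Lyn (0.34 ± 0.08, adjusted p = 0.00818) rose with RAD001, the Lyn call ending with quantile normalization (adjusted p = 0.163). Plcb3 also rose with PD325901 (0.52 ± 0.14, adjusted p = 0.0095) and GDC0941 (0.63 ± 0.14, adjusted p = 0.00769), and Lyn with GDC0941 (0.25 ± 0.08, adjusted p = 0.0403).

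Of 20 genes for transcription factors and NF-kB regulators known to act on CXC chemokine genes, all were tested. The shares of all genes tested that rose and fell were 18.4% and 28.2% with PD325901, 15.4% and 15.9% with RAD001, and 11.6% and 12.7% with GDC0941. With PD325901 3 rose and 4 fell, and with RAD001 9 rose and 0 fell, or 12 and 1 after median-ratio scaling and 11 and 1 after quantile normalization. With GDC0941 4 rose and 2 fell, or 10 and 4 without replicate 1 of every group. The median log2 difference of the list was -0.04 with PD325901, 0.63 with RAD001 and -0.01 with GDC0941, against -0.06, 0.00 and 0.02 over all genes tested. Egr1, an immediate early factor induced by ERK, fell with PD325901 to 0.456 ± 0.0664 FPKM, against 15.6 ± 3.13 FPKM with DMSO (-3.49 ± 0.23, adjusted p = 1.93e-06, n = 3 each, by limma). It rose with RAD001 to 53.2 ± 9.62 FPKM (1.71 ± 0.23, adjusted p = 0.000386) and with GDC0941 to a mean of 34.0 FPKM (1.03 ± 0.23, adjusted p = 0.00795). The AP-1 subunit gene Fosl1 fell with PD325901 to 0.0514 ± 0.0163 FPKM and rose with RAD001 to 16.5 ± 2.49 FPKM, against 5.07 ± 2.21 FPKM with DMSO (-2.46 ± 0.23, adjusted p = 1.44e-05, and 1.59 ± 0.23, adjusted p = 0.000510).

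The inhibitor of NF-kB Nfkbie, itself an NF-kB target, fell with PD325901 to 6.96 ± 0.266 FPKM, against 16.0 ± 3.57 FPKM with DMSO (-1.08 ± 0.21, adjusted p = 0.00169 by limma, n = 3 each). With RAD001 Nfkbie rose (0.77 ± 0.21, adjusted p = 0.0169). Cebpb, the gene of a C/EBP factor of macrophages, rose with all 3 inhibitors. The differences were 0.72 ± 0.17 with PD325901 (adjusted p = 0.00529), 1.37 ± 0.17 with RAD001 (adjusted p = 0.000260) and 0.98 ± 0.17 with GDC0941 (adjusted p = 0.00244). Fosl2, another AP-1 subunit gene, likewise rose with all 3. The differences were 0.66 ± 0.18 with PD325901 (adjusted p = 0.0112), 1.22 ± 0.18 with RAD001 (adjusted p = 0.000607) and 0.82 ± 0.18 with GDC0941 (adjusted p = 0.00741).

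**Figure D5:**
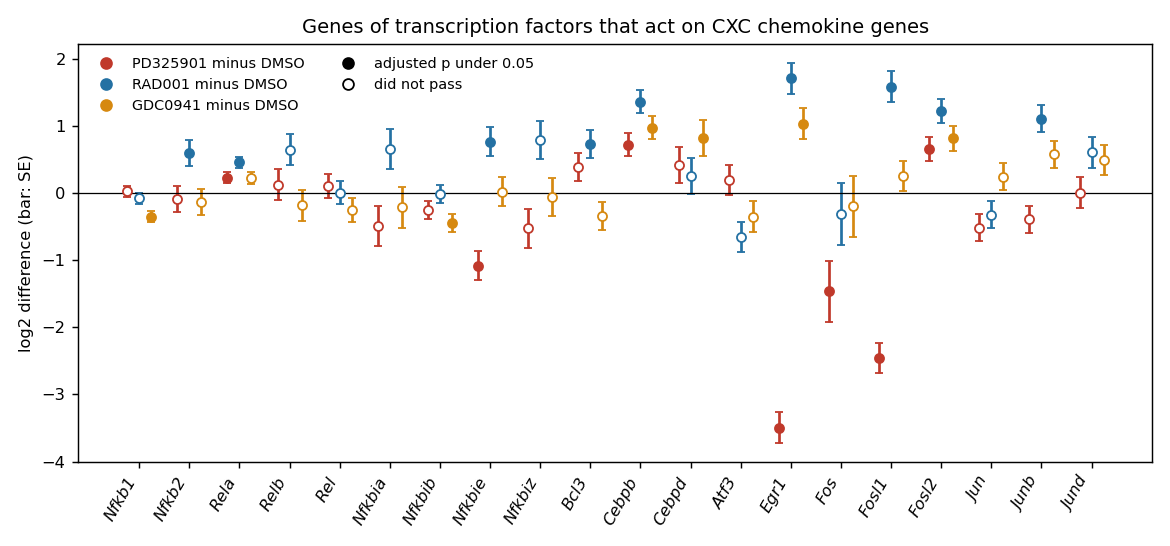
Log2 difference from DMSO of 20 genes for transcription factors and NF-kB regulators, with the SE of the limma fit; filled points passed at an adjusted p under 0.05 and open points did not. Egr1, at -3.49 with PD325901 and 1.71 with RAD001, spans the widest range, and 9 genes have filled RAD001 points above 0.

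Of 10 genes that control the life of chemokine mRNA, all tested, 1 rose and 4 fell with PD325901, 2 rose and 0 fell with RAD001, and 2 rose and 0 fell with GDC0941. Over all genes tested 46.6%, 31.3% and 24.3% were called with PD325901, RAD001 and GDC0941, so these counts do not set the list apart. After quantile normalization 2 rose and 4 fell with PD325901. The median log2 differences were -0.13 with PD325901, 0.19 with RAD001 and 0.07 with GDC0941, against -0.06, 0.00 and 0.02 over all genes tested. The mRNA decay factor Zfp36l1 rose with all 3 inhibitors, to 35.4 ± 6.02, 55.0 ± 6.34 and 37.5 ± 5.64 FPKM with PD325901, RAD001 and GDC0941, against 20.3 ± 3.94 FPKM with DMSO (log2 differences 0.78, 1.41 and 0.86, each ± 0.16 SE, adjusted p = 0.00251, 0.000160 and 0.00333 by limma). The endonuclease Zc3h12a, which cleaves inflammatory mRNAs, rose with RAD001 (0.85 ± 0.19, adjusted p = 0.00592) and GDC0941 (0.75 ± 0.19, adjusted p = 0.0140). Its GDC0941 call ended without GDC0941 replicate 2 (0.0549) or replicate 3 (0.0515) and when the 2 groups were fitted alone (0.0582). The RNA-binding protein Hnrnpd (-0.43 ± 0.09, adjusted p = 0.00196) and the adaptor Traf3ip2, through which interleukin 17 stabilises Cxcl1 mRNA (-0.58 ± 0.12, adjusted p = 0.00202), fell with PD325901.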

How the data were processed

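RNA was sequenced from 12 samples, and 1 deposited table of FPKM per gene symbol and library was used. Per the submitters' processing notes, TopHat2 2.0.4 and Cuffdiff were used on mm9 to make these FPKM. The sources used here do not give the annotation, the version of Cuffdiff or how libraries were normalized to each other. Libraries summed to 462335 to 587581 FPKM.

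Genes averaging 1 FPKM or more (10305 of 23234) were kept, and log2(FPKM + 1) was fitted with limma 3.58.1 in R 4.3.3. The model had 4 group means, 8 residual degrees of freedom and an eBayes trend. Each inhibitor was compared with DMSO, two-sided, with Benjamini-Hochberg adjustment over all genes tested and a threshold of 0.05. The fit was tested on simulated data. Group values are means ± SD. An FPKM table alone gives no counting error.

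The members, gene lists and tests were chosen with earlier results of these data known. From each pathway list the text names up to 3 genes with the smallest adjusted p among those called in a comparison, and abundant ones where none was called. Calls of these genes in further comparisons are given from the main fit only, without the alternatives. For each member it names the 3 genes nearest by RMS difference. A few genes that these rules select are not reported here. Of 141 list symbols 140 matched the table, 2 of them by synonym, and Ly6g was not analysed here.

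Deviations from group means of libraries with the same replicate number correlated in all 3 pairs at 0.183 or more for PD325901 and DMSO and at 0.201 or more for RAD001 and DMSO. The partner with the same number was the best match for 3 of 3 PD325901 libraries and for 1 of 3 RAD001 libraries. By that check the numbers may pair the PD325901 libraries with those of DMSO, although no label says so. For RAD001 and GDC0941, with 1 best match of 3 each, the check does not settle it. A replicate block was fitted as an alternative. The others were the pseudocount, the filter, 2 scalings, the 2 groups alone, library weights and leaving out libraries. Promoters and gene order came from RefSeq.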

Additional observations from a re-analysis of the deposited data

How the results depend on the processing

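Of the 18 log2 differences from DMSO of the 6 members that passed the filter, 15 kept their sign under every alternative that gave a value. The other 3 were near 0: Cxcl2 with GDC0941 (-0.52 to 0.96), Cxcr2 with GDC0941 (-0.19 to 0.19) and Cxcl5 with PD325901, which was 0.052 after quantile normalization, against -0.08. Cxcl5 gave no value with a filter at a mean of 5 FPKM. The size of the PD325901 difference depended on the pseudocount, for Cxcl3 -5.28 with 0.1 FPKM and -1.33 with 5 FPKM, for Cxcl2 -5.35 and -2.62, and for Ppbp -2.48 and -0.72. With GDC0941 the Ppbp difference was likewise -2.58 and -0.73. The value without replicate 1 of every group was added after seeing the data.

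The number of genes called was 4802 for PD325901, 3224 for RAD001 and 2503 for GDC0941. Leaving out 1 library gave 4015 to 4252, 2231 to 3259 and 1659 (without DMSO replicate 2) to 3140. Library weights gave 7073, 6923 and 3849, and leaving out replicate 1 of every group 5693, 4845 and 4321. With the 2 groups fitted alone the counts were 5442, 3430 and 1737. The cause of these shifts was not tested. With PD325901 1893 genes rose and 2909 fell, or 2675 and 2455 after quantile normalization. The replicate block gave 5241, 3712 and 2956 calls and ended no call that was named from the pathway lists by the smallest adjusted p. For GDC0941 the lowest correlation of same-numbered libraries with DMSO was 0.0354, and 1 of 3 libraries correlated best with its own number, as for RAD001. No scaling moved the median of all genes by more than 0.1 on the log2 scale. Without absolute depth, no lower limit can be set for Cxcl1, or for Cxcl5 outside RAD001.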
